A study of Rattus norvegicus with 24 samples.

Results

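Oligodendrocytes are the cells that wrap axons of the brain with myelin, and 30 genes of that lineage were followed here in 2 reward-related regions of the rat brain. The 30 genes were given as a list of symbols: 8 genes of oligodendrocyte precursors, 3 transcription factors used throughout the lineage, and 19 genes of myelinating oligodendrocytes and their myelin. All 30 were present among the 37403 genes of each of 2 count tables, and all 30 passed the filter on low counts in both. The genes were chosen for what they mark and not for their values, although earlier results on these data were known when the list was made.

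The animals were adult (60 days of age or older) first-generation male offspring, by their labels, of rat fathers that had self-administered morphine (MOR-sired) or saline (SAL-sired) for 60 days. No other allele, drug or treatment of the offspring is given, and the mothers and the strain are not described in the labels. Bulk RNA was sequenced from bilateral punches of the nucleus accumbens (NAC), a striatal region that receives dopamine, and of the ventral tegmental area (VTA), where dopamine neurons lie. NAC gave 7 libraries of each sire group and VTA 5 of each. By their titles the libraries are biological replicates, neither animals nor litters are named, and p-values cover the spread among these libraries. A punch mixes cell types, so fewer oligodendrocytes and less RNA per oligodendrocyte cannot be told apart.

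Oligodendrocyte precursors divide in the adult brain and carry the growth factor receptor Pdgfra and the proteoglycan Cspg4 (NG2). When they differentiate they pass through a short stage marked by Gpr17 and Bmp4, switch on the transcription factor Myrf, and then make large amounts of a small set of proteins and lipids that form compact myelin. Olig1, Olig2 and Sox10 act in the lineage from its precursors to its mature cells. Myelin is dense in fibre tracts and in the grey matter that they cross.

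NAC libraries totalled 21.9 to 41.3 M estimated counts, VTA libraries 23.6 to 43.5 M. Levels below are CPM, a gene's estimated counts per M counts of its library, and since the authors' counts come from transcript abundances (TPM) scaled to the library total they can be compared between genes as well as between libraries. In 4 VTA libraries (SAL-sired VTA 5 and MOR-sired VTA 3, 4 and 5) sex-linked transcripts went against the label male: Xist lay between 78.9 and 108 CPM and Ddx3y at 0.0762 CPM or less, while the other 20 libraries had at most 0.245 CPM of Xist and at least 28.7 CPM of Ddx3y. VTA sire effects are therefore also given without those 4 libraries, which leaves 4 SAL-sired and 2 MOR-sired libraries. NAC punches differed in composition, with Ppp1r1b, a gene of striatal projection neurons, ranging from 159.6 to 3119 CPM and lowest in MOR-sired NAC 2 and 7. Th, the rate-limiting enzyme of dopamine synthesis, separated the regions, at 1293 CPM or more in every VTA library and at most 1.87 CPM in NAC. It does not show how much of a NAC punch was striatal. Slc17a7, a gene of cortical glutamatergic neurons, ranged from 110.6 to 1366 CPM in NAC. Summed cortical glutamatergic markers lay between 702.3 and 1517 CPM in SAL-sired and between 138.7 and 1639.5 CPM in MOR-sired NAC. Their part in the ratios between regions was not tested.

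By summed CPM the precursor genes were the lowest of the 3 classes in each region, although single genes of different classes overlapped. In SAL-sired NAC Pdgfra lay between 21.2 and 25.2 CPM (median 22.9), and MOR-sired NAC ran from 19.2 to 23.9 CPM (median 21.6). In VTA it stood at 42.6, 39.0, 35.9, 27.9 and 31.4 CPM in SAL-sired libraries 1 to 5 and at 35.5, 27.6, 28.6, 34.0 and 29.4 CPM in MOR-sired libraries 1 to 5. The NAC sire groups overlapped, the VTA sire groups overlapped, and each VTA library lay above each NAC library. Cspg4, the NG2 proteoglycan of precursors and pericytes, ranged from 8.10 to 11.8 CPM over the 14 NAC libraries and from 11.3 to 14.6 CPM over the 10 VTA libraries.

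Gpr17, an orphan receptor of cells that have just left the precursor state, was the most abundant precursor gene of NAC, between 40.8 and 54.6 CPM, and lay between 40.3 and 51.2 CPM in VTA. Bmp4, a secreted growth factor of the same stage, lay between 14.2 and 22.4 CPM in NAC and between 11.9 and 25.0 CPM in VTA. Neu4, a sialidase, lay between 6.85 and 11.1 CPM in NAC and between 9.75 and 15.3 CPM in VTA. Those 3 genes thus had overlapping ranges in the regions. C1ql1, a secreted protein of the C1q family that is also made by some neurons, was more variable, from 22.2 to 39.8 CPM in NAC and from 52.3 to 153.9 CPM in VTA, where SAL-sired VTA 4 was highest. Matn4, a matrix protein, was the lowest member, with 3.63 to 9.75 CPM in NAC and 4.23 to 11.7 CPM in VTA. Lhfpl3, a membrane protein gene of precursors, lay between 29.1 and 44.4 CPM in NAC and between 49.7 and 63.8 CPM in VTA, with no overlap.

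By summed CPM the transcription factors were intermediate. Olig1 was the most abundant of them, with 162.9 to 219 CPM in NAC and 242 to 314 CPM in VTA. Its partner Olig2, which specifies the lineage, was lower, with 30.4 to 45.4 CPM in NAC and 49.3 to 62.8 CPM in VTA. Sox10, which drives myelin genes together with Myrf, lay between 56.1 and 81.8 CPM in NAC and between 97.1 and 121.7 CPM in VTA. For all 3 the VTA libraries lay above the NAC libraries.

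Among the mature members, Mbp (myelin basic protein, which compacts the inner faces of the myelin membrane) was the gene with the highest mean CPM of the whole table in both regions. In SAL-sired NAC it lay between 4228 and 6236 CPM (median 5152), and MOR-sired NAC ran from 4493 to 6179 CPM (median 5260.4). In VTA it stood at 15616, 16763, 14143, 13424 and 13239 CPM in SAL-sired libraries 1 to 5 and at 19421, 16690.0, 14716, 15082 and 15813 CPM in MOR-sired libraries 1 to 5. On average 0.518% of the counts of a NAC library and 1.55% of those of a VTA library were Mbp. The sire groups overlapped in both regions, MOR-sired VTA 1 was the highest of all libraries, and no NAC library reached the lowest VTA library.

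The other proteins of the myelin sheath followed in a wide order. Mobp, a basic protein of compact myelin, ranked 48th by mean CPM in NAC and 9th in VTA, with 1354 to 2025 CPM and 4063 to 5791 CPM. Cnp, the cyclic nucleotide phosphodiesterase of uncompacted myelin, had 466.9 to 673.8 CPM in NAC and 953.5 to 1314 CPM in VTA. Mag, an adhesion protein on the membrane that faces the axon, had 255 to 407 CPM and 607 to 818 CPM. Those 3 genes had no overlap between regions. Mog, a surface protein of the outermost layer, had 127 to 183 CPM in NAC and 274 to 395 CPM in VTA. Mal, a proteolipid of membrane sorting, was the exception of its class: 237 to 368 CPM in NAC overlapped with 349.8 to 549.6 CPM in VTA. Opalin, a membrane glycoprotein of mature cells, had 79.0 to 118.9 CPM and 133 to 176 CPM, and Ermn, a cytoskeletal protein of late myelination, had 88.7 to 124 CPM and 249.7 to 389 CPM. Tspan2, a tetraspanin, had 72.8 to 108 CPM in NAC and 113 to 192 CPM in VTA.

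Genes of junctions and of the node showed the same order of regions. Cldn11, the claudin of the tight junctions between myelin layers, had 321 to 469.6 CPM in NAC and 596 to 861 CPM in VTA. Gjb1 (connexin 32), a gap junction protein of myelin, had 22.8 to 39.9 CPM and 88.3 to 130.6 CPM. Hapln2 (Bral1), a link protein of the matrix at nodes of Ranvier, had 81.4 to 142 CPM and 287 to 389.9 CPM. In each of these 3 genes the lowest VTA library lay above the highest NAC library.

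Lipid and metabolic genes did so too. Ugt8, which makes the myelin lipid galactosylceramide, had 45.4 to 69.7 CPM in NAC and 120.8 to 214 CPM in VTA, and Fa2h, which hydroxylates its fatty acid, had 36.3 to 55.2 CPM and 96.4 to 143 CPM. Aspa, which releases acetate from N-acetylaspartate, had 18.6 to 30.015 CPM and 46.8 to 66.5 CPM. Enpp2 (autotaxin, which makes lysophosphatidic acid and is also abundant in choroid plexus) had 78.0 to 126 CPM and 228 to 342 CPM. Ndrg1 had 89.5 to 120.4 CPM and 228 to 308 CPM. Tf, the iron carrier transferrin, which oligodendrocytes and choroid plexus make, ranked 222nd in NAC and 34th in VTA with 494 to 815 CPM and 1599 to 2590.1 CPM. Myrf, the transcription factor that switches on myelin genes, had 41.4 to 66.7 CPM and 92.2 to 122 CPM.

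**Figure D1:**
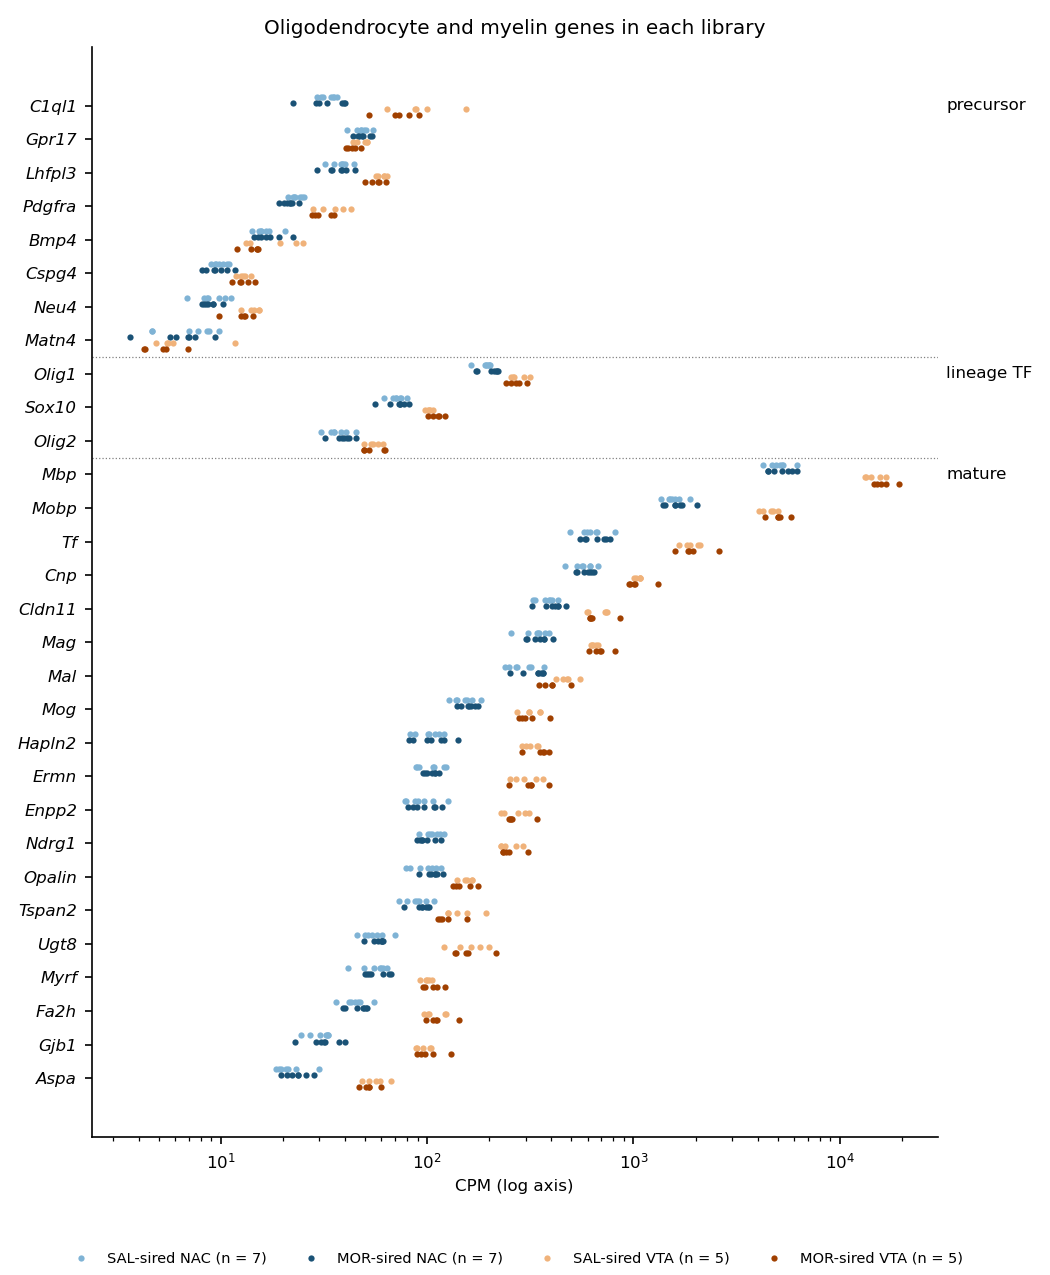
CPM of each of the 30 genes (log axis) in every library, with 1 point per library and the 4 groups of library in separate colours and rows, ordered by class and by mean level. Mbp lies between 4228 and 6236 CPM in NAC and between 13239 and 19421 CPM in VTA, and Matn4 at the other end between 3.63 and 11.7 CPM.

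Promoter sequences are shown for 4 mature members whose window held ACAAAG (Mag, Mobp, Cnp and Hapln2) and for 1 precursor gene whose window did not (Pdgfra), because Sox10 is itself a member and ACAAAG is a form of the short motif that SOX proteins bind. The RefSeq promoter table of assembly GRCr8 held an entry for 21 of the 30 members. The motifs were chosen after values of these data were known. In the 250 bases before the start site, ACAAAG or its reverse complement CTTTGT was found in 6 of the 14 mature members with an entry (Cnp, Hapln2, Mag, Mbp, Mobp and Opalin), in 0 of 6 precursor members and in 0 of 1 transcription factor, and in 16.3% of all 33469 entries. The sequences run 5′ to 3′ on the strand of the gene, stop before the first annotated base of the gene, and have the motif in capitals on whichever strand it lies.
Mag, chr1:95291134-95291294, minus strand: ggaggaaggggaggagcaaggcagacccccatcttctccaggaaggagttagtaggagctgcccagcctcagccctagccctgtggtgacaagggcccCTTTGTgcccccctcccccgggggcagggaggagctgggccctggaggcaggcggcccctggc
Mobp, chr8:128746982-128747116, plus strand: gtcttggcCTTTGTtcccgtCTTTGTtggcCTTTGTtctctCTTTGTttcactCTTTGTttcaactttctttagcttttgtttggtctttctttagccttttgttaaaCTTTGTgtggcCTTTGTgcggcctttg
Cnp, chr10:86011254-86011503, plus strand: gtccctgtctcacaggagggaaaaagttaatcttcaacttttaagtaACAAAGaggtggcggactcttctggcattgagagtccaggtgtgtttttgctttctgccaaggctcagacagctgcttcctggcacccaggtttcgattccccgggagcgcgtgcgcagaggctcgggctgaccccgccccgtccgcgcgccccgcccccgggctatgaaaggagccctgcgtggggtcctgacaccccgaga
Hapln2, chr2:175794516-175794688, minus strand: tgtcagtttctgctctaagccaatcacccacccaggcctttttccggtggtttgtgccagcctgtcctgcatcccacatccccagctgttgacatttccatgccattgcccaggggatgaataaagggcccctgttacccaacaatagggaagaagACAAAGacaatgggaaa
Pdgfra, chr14:33408605-33408766, minus strand: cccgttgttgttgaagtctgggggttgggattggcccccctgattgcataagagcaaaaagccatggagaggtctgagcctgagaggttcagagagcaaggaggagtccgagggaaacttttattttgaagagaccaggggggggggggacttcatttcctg
The Mobp stretch holds 7 matches, all reading CTTTGT on the gene's strand and within a run rich in T. The Mag, Cnp and Hapln2 stretches hold 1 each and the Pdgfra stretch holds 0. Other short motifs searched on both strands were CAGCTG, an E-box (5 of 14 mature and 3 of 6 precursor members, 12.0% of all entries), GGGCGG, the GC box (6 of 14 and 3 of 6, 30.5%), and TATAAA (2 of 14 and 0 of 6, 12.9%). A match is a string in the sequence and not a measured binding site.

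The regions differed most in the mature genes. Of the 19 mature members, 18 had every VTA library above every NAC library in plain CPM, the exception being Mal, and 19 of 19 when the scaling factors (TMM, trimmed mean of M-values) were computed over all 24 libraries. Among all 20603 genes compared, 12.3% had every VTA library above every NAC library in plain CPM and 13.1% with the common TMM factors, while 12.8% had every VTA library below. The median ratio of mean CPM, VTA over NAC, was 2.45 for the mature members against 1.04 for all genes. The 2 tables were deposited separately, so regions are described and not tested.

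Within the mature class the ratio ran from 1.42 for Mal to 3.20 for Hapln2 and Gjb1. Tf (3.00), Mobp (3.00), Mbp (2.99), Ermn (2.98), Ugt8 (2.84) and Enpp2 (2.80) lay near the top. Tspan2 and Opalin (each 1.49), Cldn11 (1.72), Cnp (1.80), Myrf (1.83) and Mag (1.95) lay in the lower part, and Mog (2.05), Aspa (2.41), Fa2h and Ndrg1 (each 2.45) between. Ratios thus differed among proteins of the same sheath. Split by sire group, Mbp had ratios of 2.86 (SAL-sired) and 3.11 (MOR-sired). Among the mature members Mal was the least alike, with 1.65 in SAL-sired and 1.22 in MOR-sired libraries, and among the precursor members Bmp4, with 1.15 and 0.822.

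The transcription factors had smaller ratios, 1.39 for Olig1, 1.45 for Olig2 and 1.495 for Sox10, with 3 of 3 above NAC in every VTA library. Of the 8 precursor genes 3 had VTA above NAC without overlap: Pdgfra (1.49), Lhfpl3 (1.55) and C1ql1 (2.60). The ranges of the other 5 overlapped, with ratios of 0.857 for Matn4, 0.948 for Gpr17, 0.983 for Bmp4, 1.31 for Cspg4 and 1.497 for Neu4. Their median over the 8 was 1.40.

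Summed over the 19 genes, mature members made up 0.817% to 1.19% of a NAC library and 2.39% to 3.41% of a VTA library. The 8 precursor genes summed to 152 to 205 CPM in NAC and 214 to 338 CPM in VTA. In each library the median log2(CPM + 1) over the precursor members was subtracted from that over the mature members. This difference had a group median of 2.46 in both NAC groups, 3.59 in SAL-sired VTA and 3.81 in MOR-sired VTA. The highest NAC library stood at 2.58 and the lowest VTA library at 3.17, so the regions did not overlap in it, while the sire groups overlapped in each region.

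**Figure D2:**
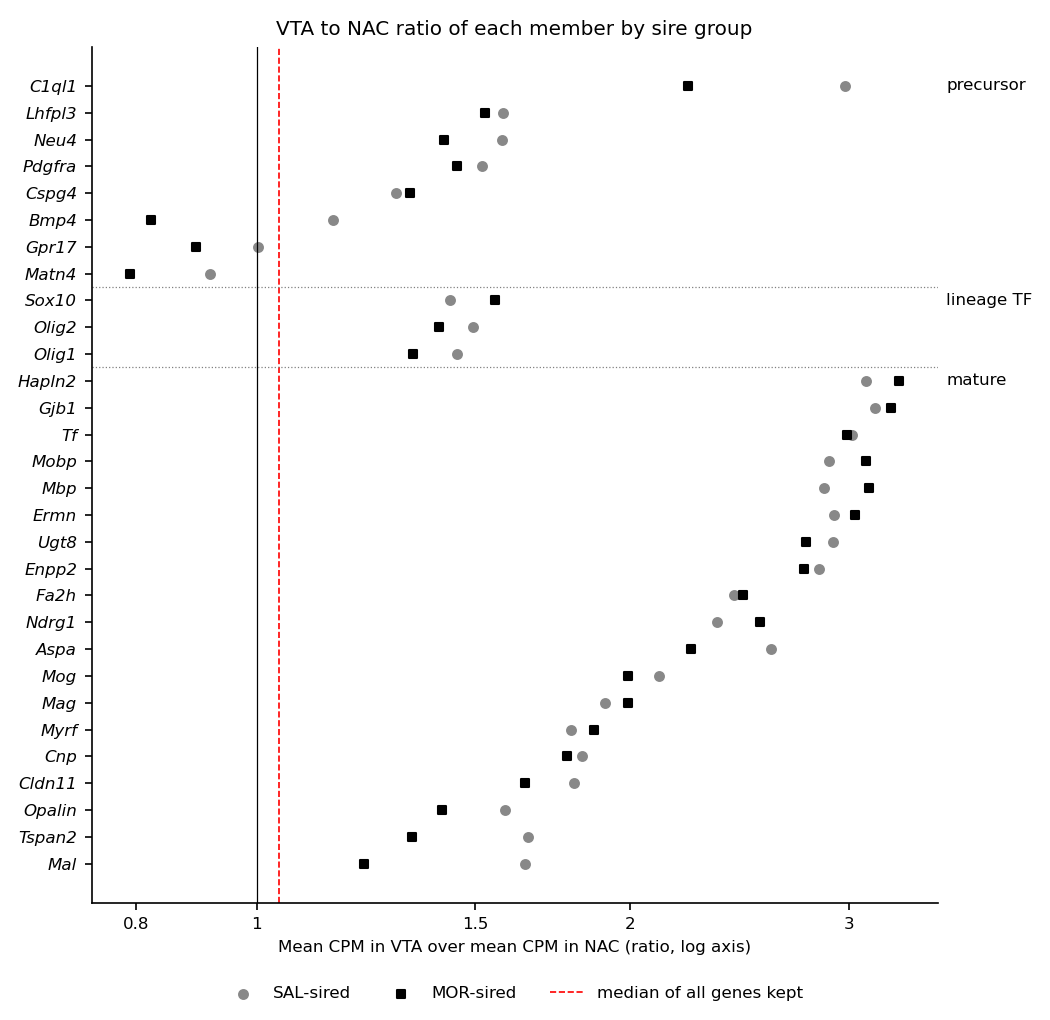
Ratio of mean CPM in VTA to mean CPM in NAC (log axis) for each gene, with circles for SAL-sired and squares for MOR-sired libraries and a dashed line at the median of all genes (1.04). The mature genes lie between 1.42 (Mal) and 3.20 (Hapln2) with the sire groups pooled, and Matn4 lies below 1 in both sire groups while Gpr17 (1.002 and 0.895) and Bmp4 (1.15 and 0.822) lie below 1 in MOR-sired libraries only.

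Other genes of the pathway, from lists of related genes, showed where the difference between regions extended. Of 25 further genes of mature oligodendrocytes, 24 had VTA above NAC without overlap (median ratio 2.20), and of 20 genes of myelin lipid and cholesterol synthesis 15 did (median 1.85). Of 12 genes of newly formed oligodendrocytes 7 did (1.82), and of 8 further precursor genes 2 did (1.20). Of 13 genes of the node and paranode, most of which neurons express, 2 lay above and 3 below (0.846), and of 15 genes of myelination signalling 2 lay above and 2 below (1.23). Astrocyte, endothelial and microglial markers had median ratios of 1.74, 1.69 and 1.17.

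In NAC the question was whether offspring of morphine-exposed fathers differed from those of saline-exposed fathers, and no member passed the test. The largest difference by p was Pdgfra, with means of 23.4 ± 1.32 in SAL-sired and 21.3 ± 1.5002 TMM-scaled CPM in MOR-sired NAC (n = 7 each, SD) and 1 of 7 MOR-sired libraries above the SAL-sired median. The mature members had a median log2 fold change (MOR-sired over SAL-sired) of 0.05 and the precursor members of −0.05, against 0.00 for all 18220 genes tested. Mbp itself differed by 0.03 with a standard error (SE) of 0.09. edgeR's quasi-likelihood test called 0 of 30 members and 0 of 18220 genes, a background of 0% called at an adjusted p under 0.05. At an unadjusted p under 0.05 it gave 1 of 30 members against 6.18% of all genes. DESeq2 called 73 genes and limma-voom with sample quality weights 52, with 0 members among them. The sire groups overlapped in all 30 members, and 0.0659% of all genes had no overlap.

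Pdgfra had a fold of 0.910 (95% interval 0.841 to 0.986, log2 fold change −0.14, SE 0.05), with an unadjusted p of 0.0236 and an adjusted p of 0.707 by edgeR. Mal came next and had higher means in MOR-sired NAC, 330.1 ± 41.5 against 291 ± 43.7 TMM-scaled CPM (log2 fold change 0.18, SE 0.10, adjusted p = 0.856 by edgeR), with 6 of 7 MOR-sired libraries above the SAL-sired median. The others among the 6 of smallest p were Ndrg1 (−0.11, SE 0.07), Opalin (0.11, SE 0.08), Cldn11 (0.09, SE 0.08) and Olig1 (0.06, SE 0.07). Apart from Pdgfra, these differences lie within about 2 standard errors of 0.

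Most mature members leaned the same small way in NAC. Means were higher in MOR-sired NAC for 17 of 19 mature members, the exceptions being Ermn and Ndrg1, for 2 of 3 transcription factors and for 2 of 8 precursor members, where 49.5% of all genes were higher and 50.5% lower. The count for mature members rested on few libraries: it was 10 of 19 without MOR-sired NAC 2 (median log2 fold change 0.00), 11 without SAL-sired NAC 5, 13 without MOR-sired NAC 7, and 7 without MOR-sired NAC 2 and 7 together (median −0.03). Mbp was then at −0.07 (SE 0.08). MOR-sired NAC 2 and 7 are the libraries lowest in Ppp1r1b. Summed striatal markers (8 of 8 reached 1 CPM) lay between 1147 and 4247 CPM in SAL-sired and between 305.5 and 5655 CPM in MOR-sired NAC, and their part in these counts was not tested. Of 6 listed markers each, 6 astrocyte, 5 microglial and 5 endothelial genes were on average lower in MOR-sired NAC (medians −0.03, −0.12 and −0.12, 0 called by edgeR), and their part was not tested either. Of the striatal markers 7 of 8 had lower means (median −0.10), and of the choroid plexus and ependymal markers 4 of 5 (median −0.47), again with 0 called.

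**Figure D3:**
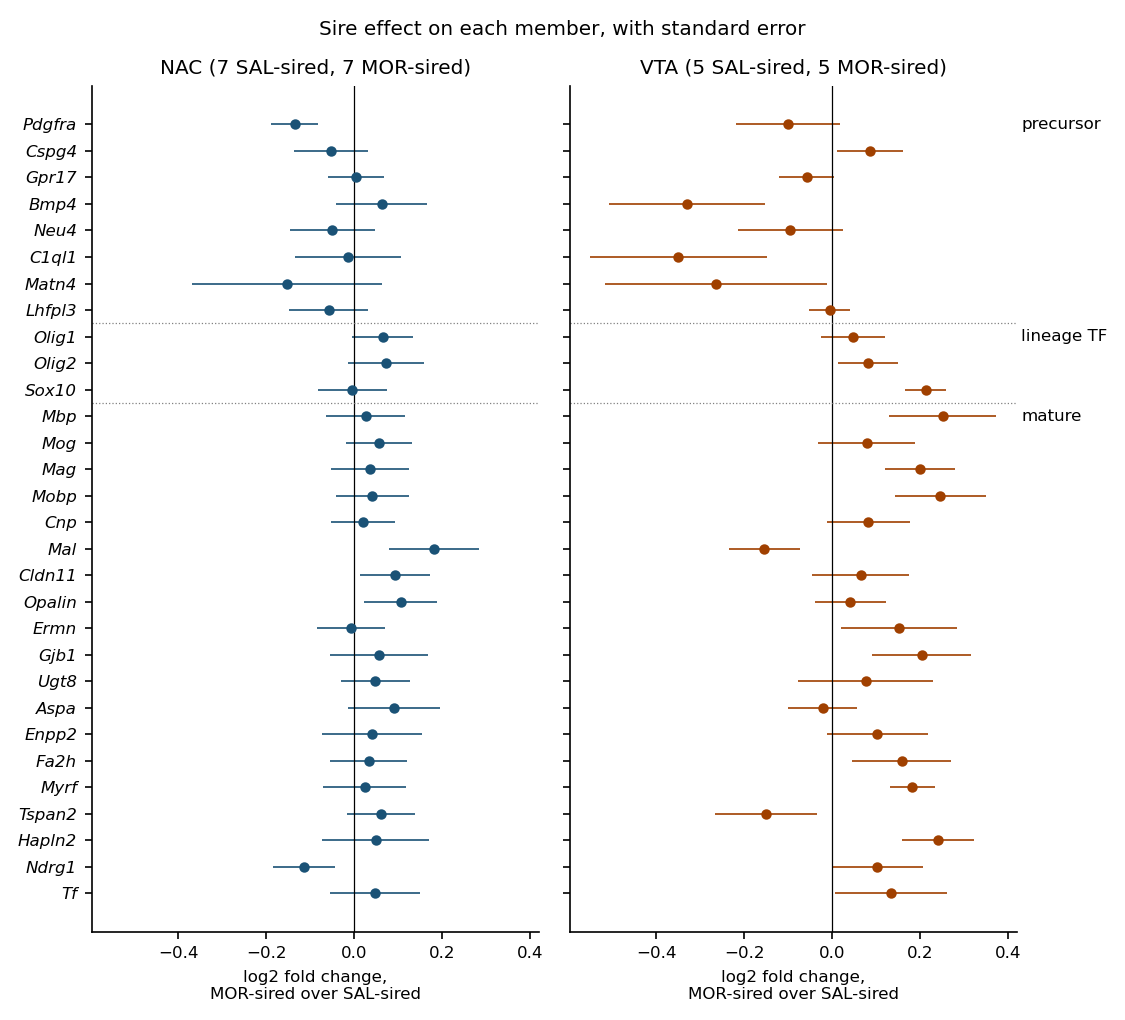
log2 fold change of MOR-sired over SAL-sired libraries with its standard error for each of the 30 genes in NAC (left) and VTA (right), by edgeR with TMM factors. In NAC the values lie between −0.15 and 0.18, and in VTA Sox10 (0.21) has one of the smallest errors and C1ql1 (−0.35) the lowest value.

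In VTA no member passed adjustment in edgeR either, and the smallest p was that of Sox10. It stood at 102, 101, 97.1, 107 and 103 CPM in SAL-sired libraries 1 to 5 and at 122, 101, 115, 107 and 113 CPM in MOR-sired libraries 1 to 5. In plain CPM the groups overlapped, and after TMM scaling they did not (91.9 to 104 against 108 to 121), which held for 1 of 30 members and for 0.908% of all 19923 genes. The fold was 1.16 (95% interval 1.08 to 1.24), with an unadjusted p of 0.000883 and an adjusted p of 0.793 by edgeR. DESeq2 called Sox10 (adjusted p = 0.0319) and no other member, as part of 115 genes, while over the other alternatives its adjusted p ran from 0.492 to 1. With total-count scaling its log2 fold change was 0.13 in place of 0.21 (adjusted p = 0.640 by edgeR).

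Of the mature members, 4 had an unadjusted p under 0.05, each higher in MOR-sired VTA. Myrf averaged 96.8 ± 4.25 in SAL-sired and 109.9 ± 7.21 TMM-scaled CPM in MOR-sired VTA (n = 5 each, SD), a log2 fold change of 0.18 (SE 0.05), and all 5 MOR-sired libraries lay above the SAL-sired median. Hapln2 averaged 308.5 ± 20.8 and 364 ± 41.8 TMM-scaled CPM (0.24, SE 0.08), also with 5 of 5 above. Mag averaged 624 ± 8.25 and 717 ± 90.2 TMM-scaled CPM (0.20, SE 0.08), and its SAL-sired libraries were the most uniform of any mature member in that group, with a SD of 0.02 on the log2 scale. Mobp had a log2 fold change of 0.25 (SE 0.10) with 4 of 5 above, and Mbp of 0.25 (SE 0.12) with 5 of 5 above. With total-count scaling none of Myrf, Hapln2, Mag and Mobp had an unadjusted p under 0.05, and their log2 fold changes were 0.10, 0.15, 0.11 and 0.15. In that scaling 3 of 30 members had one (Bmp4, Mal and Sox10), against 7.36% of all genes. Adjusted p by edgeR in the TMM-scaled test was 0.793 for Myrf, 0.869 for Hapln2, 0.928 for Mag and Mobp and 0.951 for Mbp.

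In all, edgeR's quasi-likelihood test called 0 of 30 members and 0 of 19923 genes in VTA, a background of 0% called. At an unadjusted p under 0.05 it gave 5 of 30 members against 5.31% of all genes, and limma-voom with sample quality weights called 0 genes. Means were higher in MOR-sired VTA for 16 of 19 mature members (median log2 fold change 0.10), against 47.4% of all genes higher and 52.6% lower (median −0.01), and for 11 of 19 with total-count scaling (median 0.01), which moved the median of all genes to −0.09. The mature members that were lower were Mal (−0.15, SE 0.08), Tspan2 (−0.15, SE 0.12) and Aspa (−0.02, SE 0.08). MOR-sired VTA 1 was the highest of the 10 libraries in 16 of 19 mature members, and without it the median was 0.03, with 13 of 19 higher.

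For the precursor members no direction is drawn in VTA. Of the 8, 7 had lower means in MOR-sired libraries (median −0.10), Cspg4 being the exception, but none passed and the count depended on which libraries were kept. Bmp4 stood at 25.0, 19.3, 13.2, 23.2 and 13.8 CPM in SAL-sired libraries 1 to 5 and at 15.1, 11.9, 14.95, 14.99 and 14.0 CPM in MOR-sired libraries 1 to 5, so 3 SAL-sired libraries were high and the other 2 lay among the MOR-sired ones. C1ql1 had the largest difference (log2 fold change −0.35, SE 0.20), with SAL-sired VTA 4 at 153.9 CPM. Pdgfra had a log2 fold change of −0.10 (SE 0.12, adjusted p = 0.992 by edgeR). The precursor median was −0.04 without MOR-sired VTA 5, −0.06 without SAL-sired VTA 2 (3 of 8 then higher) and −0.06 without SAL-sired VTA 1 (2 of 8 higher).

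The sire groups were not balanced for the sex-linked transcripts, which in VTA went against the label in 3 of 5 MOR-sired libraries and in 1 of 5 SAL-sired ones. Without those 4 libraries the mature median was 0.30, with 17 of 19 higher, and 12 of 30 members had an unadjusted p under 0.05 against 6.58% of all genes in that fit. None passed (smallest adjusted p = 0.194 by edgeR, for Mag, log2 fold change 0.38, SE 0.05). Both MOR-sired libraries that remain, one of them MOR-sired VTA 1, have totals under 30 M. Sox10 was then at 0.29 (SE 0.06), Mbp at 0.43 (SE 0.11) and the precursor median at −0.01.

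VTA totals fell into 4 libraries under 30 M and 6 over, evenly split between the sire groups. Within the 4 under 30 M the mature median difference on the log2 scale was 0.20 (17 of 19 higher), and within the 6 over 30 M it was 0.07 (12 of 19). The precursor median was −0.10 and −0.09. Sox10 differed by 0.28 and 0.17 and Mbp by 0.31 and 0.20. The direction was thus the same in both classes for these 2 genes, for which no test within a class was run. Over 30 M, however, the MOR-sired libraries are MOR-sired VTA 3, 4 and 5, each with Xist. Of the SAL-sired libraries over 30 M only SAL-sired VTA 5 has it. Sire group and sex-linked transcripts can therefore hardly be told apart among the libraries over 30 M. With a term for the class of total count in the edgeR test over the 10 libraries, 0 genes were called, and the smallest adjusted p of a member was 0.656. That test gave 9 of 30 members and 1264 of 19923 genes an unadjusted p under 0.05, with a mature median of 0.10. Of the markers tested, 4 of 4 cortical glutamatergic and 5 of 5 choroid plexus and ependymal genes had lower means in MOR-sired VTA (medians −1.92 and −0.35). Higher means were found for 6 of 7 dopamine neuron genes (median 0.19), 5 of 6 microglial genes (0.09) and 5 of 6 endothelial genes (0.05). Astrocyte genes were lower in 4 of 6 (median −0.09), and striatal genes higher in 4 of 8 (median 0.01). In each of these lists 0 genes were called by edgeR. The cortical markers were low in VTA and their sums overlapped between sire groups. They summed to 5.69 to 138.9 CPM in SAL-sired VTA (median 17.8, highest in SAL-sired VTA 2) and to 6.37 to 19.6 CPM in MOR-sired VTA (median 12.8). The part of these markers in the VTA results was not tested.

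Whether the sire effect differed between NAC and VTA was tested over all 24 libraries, and no gene was called. edgeR called 0 of 30 members and 0 of 20603 genes, a background of 0%, and gave 2 of 30 members an unadjusted p under 0.05 against 4.78% of all genes. Mal, with higher means in MOR-sired NAC and lower means in MOR-sired VTA, had the smallest p (VTA effect minus NAC effect −0.32 on the log2 scale, SE 0.14, unadjusted p = 0.0326). Sox10 followed (0.23, SE 0.10, unadjusted p = 0.0393), then Bmp4 (−0.38, SE 0.20) and Ndrg1 (0.23, SE 0.12). All 4 had an adjusted p of 1 by edgeR. Without the 4 libraries with Xist the test called 7 genes and 0 members.

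Related lists gave no called gene in either region by edgeR. Of 25 further mature genes, 21 had higher means in MOR-sired NAC (median 0.03) and 19 in MOR-sired VTA (median 0.14). Of all genes tested, 49.5% and 47.4% were higher. By edgeR, 7 of the 25 had an unadjusted p under 0.05 in VTA, against 5.31% of all genes. These genes were read from the same libraries as the members, so they are no independent check of them. Ppp1r14a, a phosphatase inhibitor gene of oligodendrocytes, averaged 409.9 ± 15.7 and 507.5 ± 70.1 TMM-scaled CPM in SAL-sired and MOR-sired VTA (n = 5 each, SD; log2 fold change 0.31, SE 0.09, adjusted p = 0.793 by edgeR). Nkx6-2, a transcription factor of myelinating cells, averaged 63.2 ± 3.39 and 75.4 ± 9.67 TMM-scaled CPM (0.25, SE 0.08). In NAC the smallest p of that list was that of Carns1, carnosine synthase (0.26, SE 0.11, adjusted p = 0.749 by edgeR).

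Members of the remaining lists had the following values. Of 8 further precursor genes, 7 were on average lower in MOR-sired NAC (median −0.10) and 6 in MOR-sired VTA (median −0.01). Cacng4, an auxiliary receptor protein listed with the precursor genes, was on average higher in MOR-sired VTA (0.11, SE 0.04, unadjusted p = 0.0150 by edgeR). Of 12 newly formed genes, 4 were higher in NAC and 9 in VTA, with Nkx2-2, a transcription factor of differentiating cells, at 0.29 (SE 0.12) in VTA and Zfp488 at −0.21 (SE 0.09) in NAC. Of 20 lipid synthesis genes, 4 had higher means in MOR-sired NAC and 8 in MOR-sired VTA. Elovl1, a fatty acid elongase, had positive values in both, 0.22 (SE 0.08) and 0.17 (SE 0.08). Of 15 signalling genes 5 and 4 were higher, with Hes5, a Notch target, at −0.33 (SE 0.13) in NAC, and of 13 node and paranode genes 2 and 4.

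Across the NAC libraries the mature members varied together. In NAC, Mbp and Mog gave r = 0.884 (permutation p = 4e-05, 4e-04 once adjusted over a family of 10 relations) and rho = 0.855 (permutation p = 0.00024, 0.0024 once adjusted, n = 14). Without SAL-sired NAC 5 and 6, the pair farthest from Mbp's median, r was 0.799, and it was 0.957 within SAL-sired and 0.857 within MOR-sired NAC (7 libraries each). Mbp and Pdgfra gave r = 0.112 (permutation p = 0.704, 0.782 once adjusted) and rho = 0.125 (permutation p = 0.666), and r = 0.137 without the same pair. Pdgfra and Cspg4 gave r = 0.482 (permutation p = 0.0812, 0.162 once adjusted) and rho = 0.468 (permutation p = 0.0939, 0.224 once adjusted), and r = 0.449 without MOR-sired NAC 6 and SAL-sired NAC 7.

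As a description over the 14 NAC libraries, which share their depth and composition between genes, r with Mbp ran from 0.525 (Aspa) to 0.942 (Tf) over the other 18 mature members, with a median of 0.773. It ran from 0.0375 (Lhfpl3) to 0.637 (C1ql1) over the precursor members, and was 0.822 for Sox10, 0.694 for Olig1 and 0.587 for Olig2. The mature members most like Mbp after Tf were Fa2h (0.941), Mobp (0.925) and Enpp2 (0.920). SAL-sired NAC 6 was highest in 12 of 19 mature members and SAL-sired NAC 5 lowest in 10 of 19. Mbp and Ppp1r1b, the striatal gene, gave r = −0.581 (permutation p = 0.0300, 0.1005 once adjusted) and rho = −0.481 (permutation p = 0.0828, 0.224 once adjusted), and r was −0.681 without SAL-sired NAC 5 and 6. Within SAL-sired NAC it was −0.326 and within MOR-sired NAC −0.724.

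**Figure D4:**
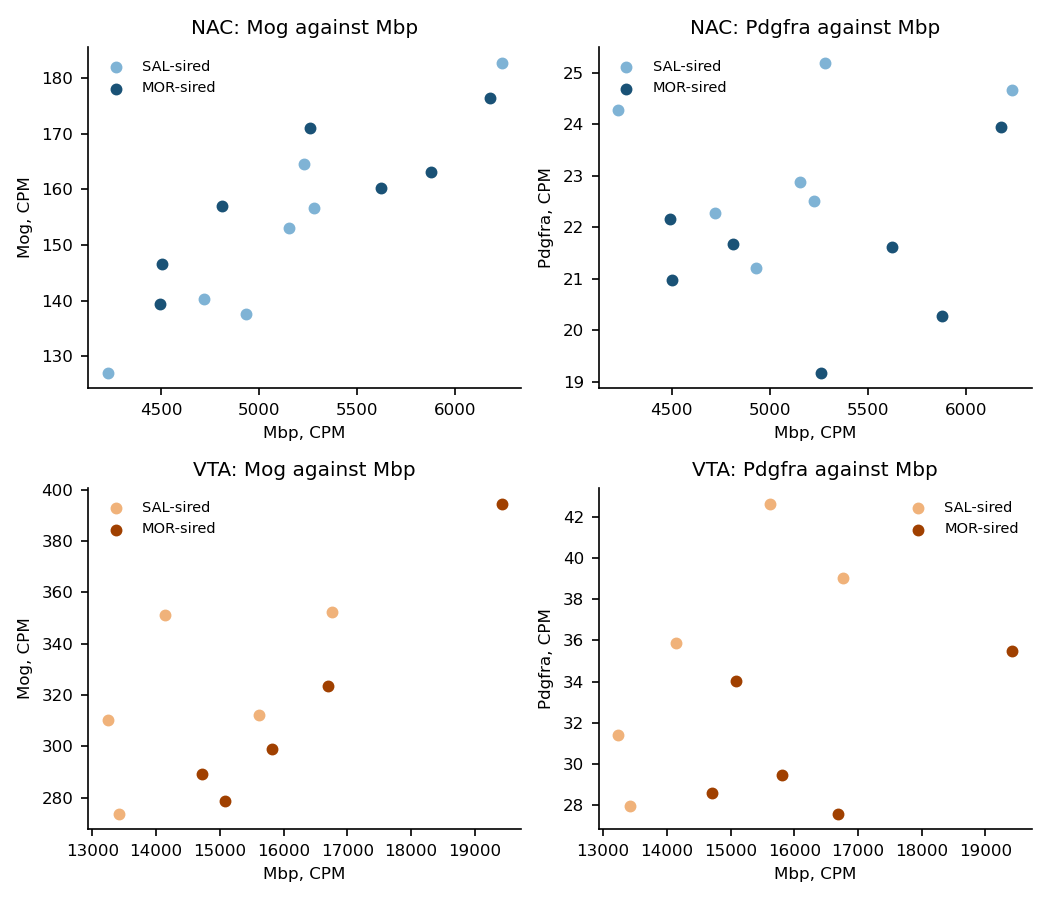
CPM of Mog (left) and Pdgfra (right) against CPM of Mbp in NAC (top) and VTA (bottom), with 1 point per library and the sire groups in separate colours. Mog follows Mbp in NAC (r = 0.884) more closely than Pdgfra does (r = 0.112), and in VTA MOR-sired VTA 1 lies at the top right with 19421 CPM of Mbp and 395 CPM of Mog.

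In VTA, with 10 libraries, no relation of the family passed adjustment in plain CPM. Mbp and Mog gave r = 0.674 (permutation p = 0.0313, 0.1005 once adjusted) and rho = 0.624 (permutation p = 0.0593, 0.224 once adjusted). Without MOR-sired VTA 1 and SAL-sired VTA 5, the pair farthest in Mbp, r was 0.468 and rho 0.595, so r depended on those libraries more than rho did. With TMM-scaled CPM r was 0.772 (permutation p = 0.0093, 0.0465 once adjusted). Mbp and Pdgfra gave r = 0.297 (permutation p = 0.412, 0.589 once adjusted), Pdgfra and Cspg4 0.313 (permutation p = 0.377, 0.589 once adjusted) and Mbp and Th −0.06 (permutation p = 0.869, 0.869 once adjusted). The corresponding rho values were 0.236, 0.491 and −0.236. Sire groups of 5 are too small for a value within each.

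The mature members other than Mbp covered a wider range of r with Mbp in VTA than in NAC, with a median only slightly lower. As a description over the 10 VTA libraries, that median was 0.711 over the other 18 mature members, against 0.0428 over the precursor members. At the ends, r was 0.914 for Fa2h and 0.913 for Mobp, but 0.168 for Tspan2, 0.193 for Opalin, 0.237 for Aspa and 0.0386 for Mal. Aspa, Mal and Tspan2, which had lower means in MOR-sired VTA, were highest in SAL-sired VTA 3, whereas the other 16 mature members were highest in MOR-sired VTA 1. Over all members, the lowest r with Mbp in VTA was that of C1ql1, a precursor member, at −0.664.

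**Figure D5:**
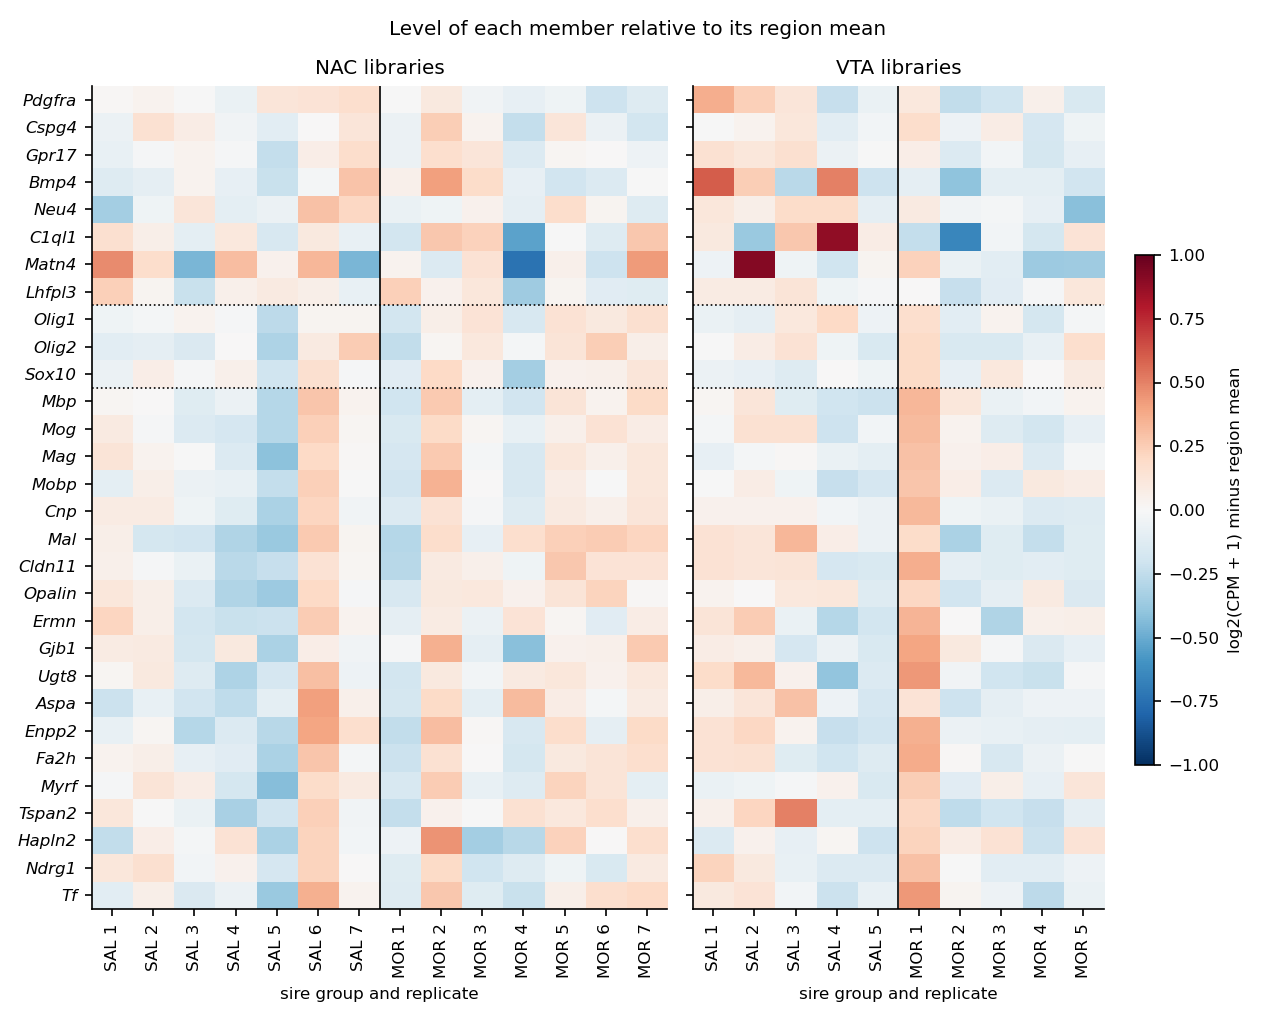
log2(CPM + 1) of each gene minus its mean over the libraries of the region, for the 14 NAC libraries (left) and the 10 VTA libraries (right), with red above and blue below the mean and the vertical line between sire groups. SAL-sired NAC 6 and MOR-sired VTA 1 are red and SAL-sired NAC 5 is blue over nearly all mature genes (medians 0.24, 0.32 and −0.28), while the precursor rows at the top vary gene by gene.

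The spread of the mature members between libraries of a group was above or close to the median of all genes, depending on the group and on which genes it is set beside. The SD of log2 TMM-scaled CPM had a median over the mature members of 0.18 in SAL-sired NAC, 0.16 in MOR-sired NAC, 0.14 in SAL-sired VTA and 0.20 in MOR-sired VTA. Over all genes tested it was 0.14, 0.18, 0.14 and 0.13, so mature members were above it in SAL-sired NAC and MOR-sired VTA and slightly below it in the other groups. Over tested genes with a mean of at least 10 CPM it was 0.11, 0.15, 0.11 and 0.11. Matn4 was the most variable precursor gene in both NAC groups (0.38 in each) and C1ql1 in SAL-sired VTA (0.46).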

How the data were processed

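RNA-seq libraries of 14 NAC and 10 VTA punches were analysed from 2 deposited tables. Per the file names and the submitters' processing notes, the authors made estimated counts per gene with Trim Galore and kallisto from transcript abundances scaled to the library total, and used DESeq2; for versions, genome build, annotation and strand setting, the sources used here give nothing. All 37403 identifiers matched a symbol of the RefSeq annotation of GRCr8, which served for names and promoter sequences only.

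Estimated counts were rounded. In each region separately, genes kept by filterByExpr were tested with edgeR 4.0.16 (R 4.3.3; quasi-likelihood, TMM factors, intercept and sire group), two-sided, with Benjamini-Hochberg adjustment over all genes kept and a call at an adjusted p under 0.05. The sire effect was compared between regions over 24 libraries with 4 group means. The SE of a log2 fold change is its size divided by the root of the F statistic. Levels are plain CPM, and tested means are TMM-scaled CPM. Correlations used log2(CPM + 1) and 100000 permutations (every permutation for 8 libraries), adjusted over 10 relations, of which 8 are reported. The scripts were tested on simulated data.

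The members, roles, related lists and tests were chosen with earlier results of these data known. All members are named with levels. Test values are given for the 6 members of smallest p per region, the 4 of smallest interaction p, Mbp and Pdgfra, and up to 2 genes of each related list. Other members with test values were named after their values were seen. Alternatives were DESeq2 1.42.0, limma-voom with sample quality weights (limma 3.58.1), other scalings, no low-count filter, the replicate number as a block, and sets of libraries left out. The term for total count, the common TMM factors, and region levels without the libraries with Xist were added after seeing the data. Library totals of 21.9 to 43.5 M bound the precision, and since values are estimates and not read counts they carry no counting interval. Some relations and alternatives that need a withheld item are not reported here.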

Additional observations from a re-analysis of the deposited data

Results flagged for a closer look

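In 9 of 124 groups of 7 (NAC) or 5 (VTA) libraries 1 library lay far from the others by Dixon's ratio, where chance marks about 1 in 20 independent groups. The groups here are not independent, because the same libraries recur in each gene. MOR-sired VTA 1 stood above the rest of its group in 5 mature genes, with 1314 CPM of Cnp, 861 CPM of Cldn11, 214 CPM of Ugt8, 342 CPM of Enpp2 and 308 CPM of Ndrg1. SAL-sired VTA 2 stood above its group in Matn4, with 11.7 CPM. SAL-sired NAC 6 stood above its group in Aspa, with 30.015 CPM. SAL-sired NAC 5 stood below its group in Olig1, with 162.9 CPM, and above it in total counts, with 41.3 M.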

How the results depend on the processing

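The count of genes called in NAC was 73 with DESeq2 and 52 with limma-voom in place of 0, with 0 members in each. In VTA DESeq2 called 115 genes, 1 of them a member (Sox10, log2 fold change 0.22), and without the libraries with Xist the test between regions called 7 genes. The median log2 fold change of the VTA precursor members was −0.19 with total-count scaling, its direction depended on the libraries kept, and that of the mature members was 0.30 without the libraries with Xist. Mbp in NAC was at −0.0691, and the mature median at −0.03, without MOR-sired NAC 2 and 7. Leaving out 1 library at a time gave Mbp in NAC values from −0.0163 to 0.0721, below 0 without MOR-sired NAC 2 (−0.014) or 7 (−0.0163) or SAL-sired NAC 5 (−0.0141). It gave NAC medians of 0.0025 to 0.0852 for mature and −0.0688 to −0.0098 for precursor members, and VTA medians of 0.0345 to 0.167 and −0.1333 to −0.0418. The relation of Mbp with Mog in VTA passed with TMM-scaled CPM (r = 0.772), and that of Mbp with Th had r = 0.134 without the farthest pair and 0.0285 with TMM-scaled CPM. The cause of these changes was not tested.

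Same-numbered libraries of the sire groups deviated together little or not at all (correlations from −0.26 to 0.096 in NAC and from −0.128 to 0.132 in VTA). The labels do not say whether the numbers pair the samples, and weak correlations cannot decide it. With the replicate number as a block edgeR called 0 genes in either region, and the mature medians were 0.04 in NAC and 0.10 in VTA.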

Other observations

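Tf and Enpp2 are made by choroid plexus as well as by oligodendrocytes, and choroid plexus and ependymal markers differed widely between NAC punches. Summed over the 5 markers present, they lay between 11.8 and 846 CPM in SAL-sired NAC and between 6.05 and 372 CPM in MOR-sired NAC, highest in SAL-sired NAC 7 and MOR-sired NAC 5. In SAL-sired NAC 7 Tf stood at 655.5 CPM and Enpp2 at 107 CPM, against group medians of 612 and 90.5 CPM, and in MOR-sired NAC 5 they stood at 663 and 108 CPM, against 663 and 96.3 CPM. Both genes were highest in SAL-sired NAC 6 (815 and 126 CPM), as were 10 other mature members.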
